A study of Mus musculus with 36 samples.

Results

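The regions described here are the sites of the mouse genome at which chromatin was strongly open in mesenchymal stem cells (MSCs) of all 4 tissues studied. MSCs are adherent connective tissue cells that can give rise to bone, cartilage and fat. They were isolated from femoral bone marrow (fBM-MSCs), vertebral bone marrow (vBM-MSCs), adipose tissue (A-MSCs) and lung (P-MSCs) of untreated C57BL6/J mice at 8 weeks of age, and all were cultured in MesenCult medium. By the study's methods the 4 tissues were taken from the same 3 mice, and the cells were grown from tissue suspensions on collagen-coated dishes and used within 3 passages, so that each tissue is a cultured population. Chromatin was profiled by ATAC-seq, with 6 samples (3 replicates in 2 runs each) pooled into 1 peak list per tissue, and RNA by RNA-seq, with 3 libraries each of fBM-MSCs, A-MSCs and P-MSCs and 2 of vBM-MSCs.

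In ATAC-seq the Tn5 transposase inserts adapters where DNA is not wrapped in nucleosomes or covered by other proteins. Open sites are found mainly at promoters, at enhancers and at sites held open by the insulator protein CTCF. Promoters of genes that every cell uses are often rich in CpG dinucleotides and in short motifs for the SP/KLF factors (GC box), NF-Y (CCAAT box), ETS factors and NRF1. Enhancers differ more between cell types, and in fibroblast-like cells many carry the motif of AP-1, the dimer of Fos and Jun proteins.

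The 11084 regions were chosen by the measured strength of the peaks. A region was kept if its −log10 q, the significance of the summit against the genome-wide background, was above 20 in A-MSCs, if it shared at least 1 bp with a region above 20 in each of the other 3 tissues, and if it had 1 or 2 summits in A-MSCs. They were 11084 of the 98008 regions listed for A-MSCs on chromosomes 1 to 19. Another 1756 regions met the rule but had more summits, 13973 with 1 or 2 summits and a further 555 with more were strong in A-MSCs but not in every tissue, and 70640 were weaker. The weakest of the chosen regions, among them 1 at the Lzts2 promoter and 1 at the Nrxn3 promoter, had a lowest −log10 q of 21.005 and a fold enrichment of 10.3. Just outside stood regions such as 1 at the Ap2b1 promoter, with 19.97 and 9.93, and 678 regions had a lowest −log10 q between 19 and 20. Because peak strength chose the regions, their fold enrichments are given as a description, without a test. Their position, their sequence and the RNA of nearby genes were not used in the choice.

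The sequences below, from GRCm38 (mm10) and on the plus strand, are the 101 bases centred on the A-MSC summit of the strongest regions of each kind outside annotated UTRs, ranked by the lowest fold enrichment over the 4 tissues. They are shown because they carry the motifs that the regions share. Capitals mark the motifs searched other than GATA. At promoters these were the GC box (GGGCGGG) and the CCAAT box (CCAAT followed by CA, CG, GA or GG), each read on both strands.
4932412D23Rik promoter, chr16:42875587-42875687: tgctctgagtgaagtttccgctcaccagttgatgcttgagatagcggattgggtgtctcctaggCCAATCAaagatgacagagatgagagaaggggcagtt
Qdpr promoter, chr5:45450357-45450457: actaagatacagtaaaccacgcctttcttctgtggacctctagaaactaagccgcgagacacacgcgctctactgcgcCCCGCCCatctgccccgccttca
Khsrp promoter, chr17:57031706-57031806: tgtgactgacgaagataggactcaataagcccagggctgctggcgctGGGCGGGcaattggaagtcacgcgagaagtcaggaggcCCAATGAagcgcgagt
Distal regions, whose summit lay more than 1 kb from any annotated transcription start, most often carried the AP-1 motif (TGACTCA or its reverse complement TGAGTCA).
Camk2d intron, chr3:126831597-126831697: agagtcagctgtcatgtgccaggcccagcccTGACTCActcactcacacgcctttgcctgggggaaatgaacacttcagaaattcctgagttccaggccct
Trpm6 intron, chr19:18890385-18890485: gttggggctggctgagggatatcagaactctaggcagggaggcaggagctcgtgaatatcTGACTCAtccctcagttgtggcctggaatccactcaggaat
Intergenic site near Dip2c, chr13:9191337-9191437: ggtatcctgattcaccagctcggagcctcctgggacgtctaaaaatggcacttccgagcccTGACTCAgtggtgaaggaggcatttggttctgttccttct
The CTCF consensus of 12 letters was rare among them. These are the strongest regions that carried it.
Prkag2 intron, chr5:25006961-25007061: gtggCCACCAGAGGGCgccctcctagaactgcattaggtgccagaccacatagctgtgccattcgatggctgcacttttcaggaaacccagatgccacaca
Intergenic site near Xkr5, chr8:18954108-18954208: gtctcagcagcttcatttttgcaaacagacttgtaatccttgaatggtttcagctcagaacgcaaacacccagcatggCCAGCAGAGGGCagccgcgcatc
The strongest distal regions with neither motif are given next; the first holds a GC box and the second none of the motifs in capitals.
Phf19 intron, chr2:34905049-34905149: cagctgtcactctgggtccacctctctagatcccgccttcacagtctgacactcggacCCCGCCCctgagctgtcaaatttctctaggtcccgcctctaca
Intergenic site near Cep162, chr9:87464260-87464360: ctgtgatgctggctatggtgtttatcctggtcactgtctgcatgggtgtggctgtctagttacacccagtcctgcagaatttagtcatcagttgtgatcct
The pair of regions with the highest fold enrichment of all distal regions was of another kind. In these windows the capitals mark bases inside 30-base words that also occur in the mouse mitochondrial genome, 96 of 101 bases in the first and 85 of 101 in the second.
Myo3a intron, chr2:22589675-22589775: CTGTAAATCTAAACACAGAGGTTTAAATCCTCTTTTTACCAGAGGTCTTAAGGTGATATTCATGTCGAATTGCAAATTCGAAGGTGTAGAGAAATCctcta
Intergenic site on chromosome 6, chr6:9890010-9890110: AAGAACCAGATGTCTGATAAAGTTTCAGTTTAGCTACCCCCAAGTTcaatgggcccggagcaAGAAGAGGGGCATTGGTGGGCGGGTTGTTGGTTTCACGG

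Since the rule asked for strength in every tissue, the likeness of the 4 values is in part fixed by the choice. The median fold enrichment at the summit, relative to the genome-wide background, was lowest in fBM-MSCs, at 17.29, followed by 18.03 in vBM-MSCs and 20.97 in A-MSCs, and P-MSCs had 21.7. The steps between listed values were 0.368 in each of the 4 lists, so that a read was worth the same fold in each. The highest of the 4 values was in P-MSCs for 44.5% of the regions and the lowest in fBM-MSCs for 45.5%. For a single region the highest value was a median of 1.5 times the lowest, with quartiles of 1.33 and 1.78. The ratio exceeded 2 in 1672 regions (15.1%) and 3 in 195 regions. Promoter regions were more even than distal regions: 3.78% of the former and 25.3% of the latter had a ratio above 2. With 1 pooled list per tissue there is no replicate error on these values. Across the 11084 regions, log2 fold enrichment correlated most between A-MSCs and P-MSCs (Pearson's r = 0.80, Spearman's rho = 0.78) and between fBM-MSCs and vBM-MSCs (r = 0.75, rho = 0.68). The other 4 pairs ranged from r = 0.68 to 0.72. Regions are not independent replicates, and the range of every list was cut at the threshold, so that the correlations are a description.

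**Figure D1:**
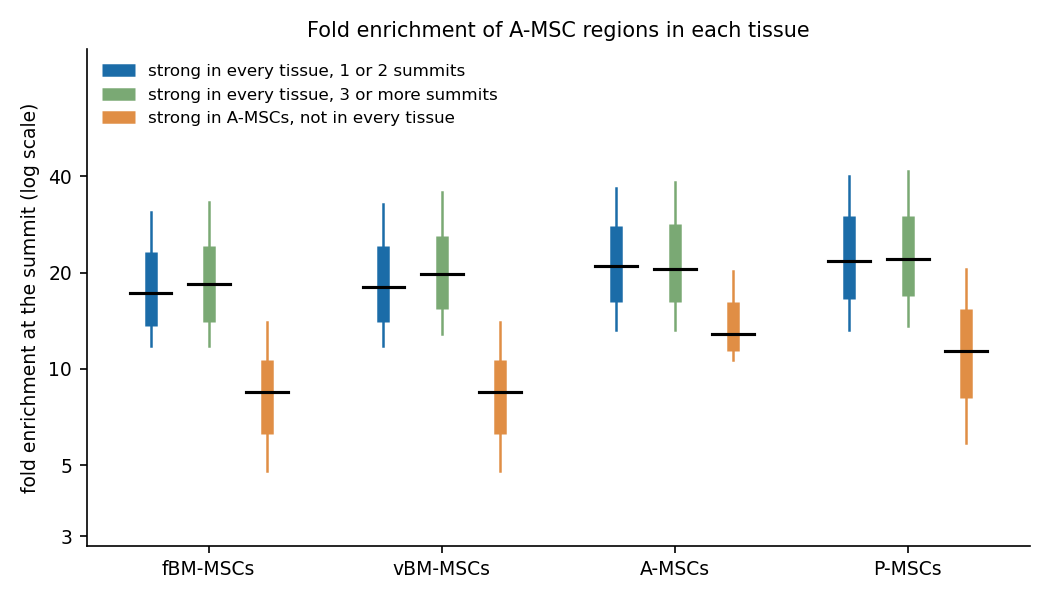
Fold enrichment at the summit (log axis) in the peak list of each tissue for A-MSC regions in 3 sets. Thick bars span the quartiles, thin lines the 10th to 90th percentiles, and black ticks are medians. The medians of the regions strong in every tissue lie between 17.3 and 21.7. Regions strong in A-MSCs but not in every tissue have medians of 8.46 in fBM-MSCs and vBM-MSCs over the 12670 and 12453 of 13973 that were listed there, which leaves out the unlisted ones.

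The summits stood at nearly the same base in each tissue. The A-MSC summit lay a median of 25 bp from the fBM-MSC summit, 24 bp from the vBM-MSC summit and 22 bp from the P-MSC summit, and 76.9% to 80.3% of summits lay within 50 bp. The regions had a median width of 874 bp. Of the regions, 3162 had 2 summits, at a median spacing of 513 bp (quartiles 382 and 639 bp). Only 2.37% of these pairs were closer than 200 bp. The spacing was alike at promoters (median 515 bp) and at distal sites (508 bp). A second summit was listed in 41.6% of promoter regions and in 16.7% of distal regions.

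Promoters made up nearly as many of the regions as all other places together. The summit of 5268 regions (47.5%, exact binomial 95% interval 46.6% to 48.5%) lay within 1 kb of a RefSeq transcription start. The share was 11.95% (11.4% to 12.5%) of the 13973 regions strong in A-MSCs but not in every tissue and 12.9% of all other A-MSC regions. It was 79.2% of the 1756 regions strong in every tissue with more summits. Of the rest, 2812 regions lay in introns (25.4%), 2840 between genes (25.6%) and 164 in exons (1.48%). The share at promoters differed with the number of tissues. It was 7.07% of strong A-MSC regions with no strong counterpart elsewhere, 10.2% with a counterpart in 1 other tissue, 18% in 2 and 47.5% in all 3. Regions are not replicates and no test of these shares was made; the intervals cover counting error only.

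At promoters the summits fell just upstream of the start, where the transcription machinery assembles. The median position was -37 bp, with quartiles of -108 and 43 bp, and 62.8% of promoter summits were upstream. Promoter summits that were not strong in every tissue had a median of 4 bp, and the weaker ones a median of 64 bp. The windows of 201 bases around the promoter summits held 65.1% G and C on average and a CpG observed over expected ratio of 0.814, against 61.9% and 0.687 at promoters not strong in every tissue. By these measures 4167 of the 5268 (79.1%) were CpG-rich, with over 55% G and C and a ratio over 0.6. A divergent pair of starts lay within 1 kb of the summit at 730 of them (13.9%), against 7.49% of promoters strong in A-MSCs but not in every tissue. Promoters strong in every tissue with more than 2 summits were CpG-rich in 78.9% and divergent in 17.9%. The 5816 distal regions lay a median of 26803 bp from the nearest start, and 1871 (32.2%) lay beyond 50000 bp. Their windows held 50.1% G and C at a CpG ratio of 0.269. By chromosome the regions ranged from 3.21 per Mb on chromosome 14 to 6.09 per Mb on chromosome 11.

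**Figure D2:**
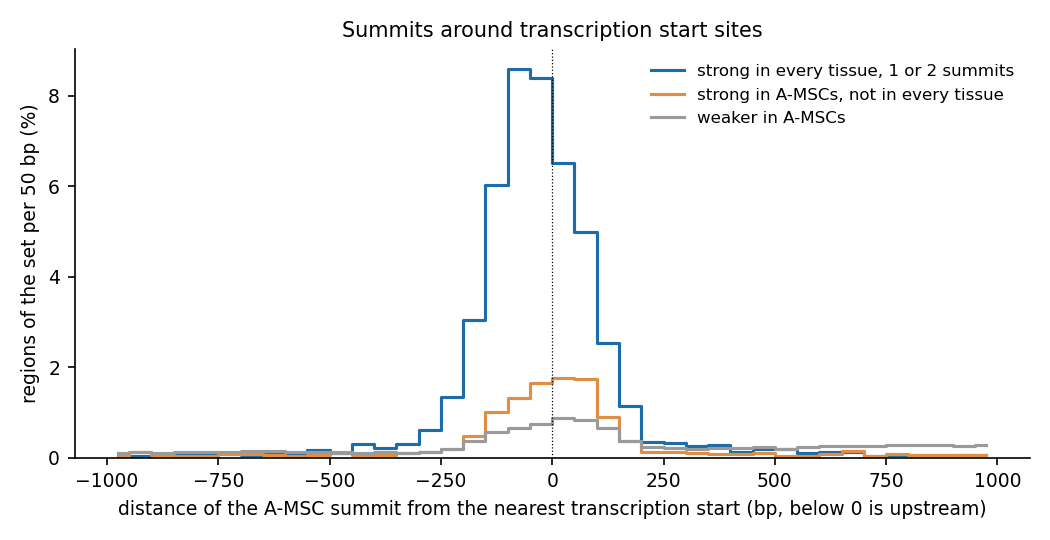
Distance of the A-MSC summit from the nearest RefSeq transcription start (bp, below 0 is upstream) for 3 sets of A-MSC regions, as the share of each set per 50 bp. Regions strong in every tissue peak just upstream of the start, with a median of -37 bp for those within 1 kb, and weaker regions stay low across the whole span.

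The 5 strongest promoter regions were at 4932412D23Rik, Qdpr, Khsrp, Osbp and Leprot. At Qdpr, which encodes a reductase that recycles tetrahydrobiopterin, the fold enrichments in fBM-, vBM-, A- and P-MSCs were 79.1, 76.2, 86.8 and 96.4. At Khsrp, whose protein binds AU-rich RNA, the values were 71.7, 79.8, 78.4 and 87.2 in that order. Osbp, which encodes an oxysterol-binding protein, had 71.7, 77.3, 73.2 and 82.8. Leprot, at the leptin receptor locus, had 79.8, 80.2, 86.5 and 71.4. At 4932412D23Rik the values were the highest of the promoters, at 86.8, 92.4, 99.7 and 109. In 4 of these 5 regions the P-MSC value was the highest of the 4 tissues.

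The strongest distal regions were led by a site in an intron of Myo3a on chromosome 2 (22589374 to 22590184), with values of 563, 293, 268 and 244 in fBM-, vBM-, A- and P-MSCs. The second, on chromosome 6 between genes (9889842 to 9890205), had 171, 92.7, 91.6 and 89.8. These are the windows shown above with mitochondrial words: 124 and 122 of the 172 words of 30 bases in their 201-base windows also occur in the mitochondrial genome. The third such region, on chromosome 10 (85026022 to 85026355), shared 2 words and had 30.5, 13.6, 13.6 and 14.0. In each of the 3 the fBM-MSC value was the highest, whereas over all regions fBM-MSCs were most often the lowest. No other A-MSC region shared such a word in the 201-base window around its summit, and sequence outside the windows was not searched. The part of mitochondrial reads in these values was not tested. The next distal regions lay in an exon of Lars2, the mitochondrial leucyl-tRNA synthetase gene (120, 141, 133 and 87.2), in an intron of Camk2d, a calcium-dependent kinase gene (71.4, 83.5, 97.9 and 111), and in an intron of Trpm6, a magnesium channel gene (70.3, 62.2, 82.4 and 89.8).

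The regions least even over the tissues were named after their values were seen. A region in an intron of Tle1, a corepressor gene, had 63.6, 61.1, 14.7 and 75.04 in fBM-, vBM-, A- and P-MSCs, a ratio of 5.10. A region in an exon of the pseudogene Pisd-ps1 had 17.7, 66.96, 20.6 and 13.2, with vBM-MSCs apart from the others. A region in an intron of Frmd4b had 21.3, 11.4, 33.9 and 54.4. Between genes near Bnip3l the values were 14.7, 11.04, 44.2 and 50.03, and in an intron of Abcc1, a drug efflux pump gene, 11.04, 18.4, 46.0 and 49.7. In the last 3, both bone marrow values lay below both of the others.

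Promoter and distal regions carried different motifs. Within 100 bases of the summit, a GC box was found at 2384 of 5268 promoter regions (45.3%, 43.9% to 46.6%), against 28.1% of promoters strong in A-MSCs but not in every tissue and 20.7% of weaker promoters. In windows centred 1 kb away from the same promoter summits the share was 3.21%. A CCAAT box was found at 27.7% (26.5% to 28.9%), against 13.4% and 7.09%, and 5.41% in the windows 1 kb away. The ETS motif (CCGGAAGT) was found at 7.25%, against 5.09% and 1.55%. The NRF1 motif (GCGCATGC) was found at 3.66%, against 2.87% and 1.44%, and the CRE (TGACGTCA), the site of CREB, at 3.23%, against 2.22% and 1.03%. The word of ZBTB33 (CTCGCGAG) was found at 1.90%, against 0.778% and 0.344%. The USF E box (CACGTGAC) was found at 2.92%, against 2.99% and 1.04%, the YY1 motif (AAGATGGCG) at 2.11%, against 1.98% and 0.827%, and the ZNF143 motif (TACAATTCC) at 0.494%, against 0.299% and 0.204%. In the windows 1 kb away from the same summits each of these 7 words was found at 0.342% or less. The AP-1 motif went the other way, with 3.49% of the promoter regions, 7.55% of those not strong in every tissue and 6.25% of the weaker ones. Regions strong in every tissue but with more than 2 summits had a GC box at 45.1% of promoters and a CCAAT box at 21.9%. Both boxes were present in 671 promoter regions (12.7%), and 1630 (30.9%) had none of the 9 promoter motifs. These shares move with base composition, since the GC box and the promoters of this set are both rich in G and C; how much of the difference this makes was not tested.

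Promoter regions with a CCAAT box had higher values than those without, given here as a description. The lowest fold enrichment over the 4 tissues had a median of 20.97 for the 1457 promoter regions with the motif and 15.8 for the 3811 without. For the GC box the medians were 17.7 and 16.2, and for ETS 16.2 and 16.9. The CCAAT box is the site of NF-Y, a trimer that contacts DNA much as histones do. In distal regions, which lay close to the lower limit of 10.3 that the rule set, the medians were 13.6 with the AP-1 motif and 13.3 without.

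Among the distal regions the AP-1 motif was the most frequent. It was found in 2679 of 5816 (46.1%, 44.8% to 47.4%), against 35.8% of distal regions strong in A-MSCs but not in every tissue, 24.2% of the weaker ones and 3.77% in windows 1 kb away. The share differed with the number of tissues in which the region was strong, from 26.9% with no other tissue to 37.9%, 41.5% and 46.1% with 1, 2 and 3 others. Regions strong in every tissue but with more than 2 summits did not follow this order, with the motif in 101 of 365 distal ones (27.7%, 23.1% to 32.6%). The TEAD motif (ACATTCC) was found in 10.4%, against 11.6% of regions not strong in every tissue and 2.77% in windows 1 kb away. The RUNX motif (TGTGGTT or TGCGGTT) was found in 10.9%, against 9.82% and 4.97%. GATA words (AGATA or TGATA followed by an A or a G) were the exception. They were found in 20.4% of the distal regions (19.4% to 21.5%) but in 33.5% of those not strong in every tissue and in 32.2% of windows 1 kb away. Distal regions strong in every tissue with more than 2 summits had them in 16.7%. The summit windows of regions not strong in every tissue held 47.4% G and C, against 50.1%, and the GATA words are poor in G and C; this part was not tested. Neither AP-1, TEAD, RUNX nor CTCF was found in 2417 distal regions (41.6%). A match is a word in a window and not a bound site.

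CTCF, whose sites are open in most cell types, was rarely found. The consensus occurred at 44 distal regions (0.757%, 0.550% to 1.01%), at 0.910% of distal regions strong in A-MSCs but not in every tissue and at 3.10% of the weaker distal regions. Among weaker distal regions, however, those with the motif were more often listed in all 4 tissues: 745 of 1947 (38.3%, 36.1% to 40.5%) with the motif and 29.2% of the 60836 without. Their median fold enrichment in A-MSCs was 4.78, against 5.15 without the motif. Most sites with the CTCF word, 1947 of the 2108 distal ones, were weaker regions, as were 62783 of all 81566 distal A-MSC regions.

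**Figure D3:**
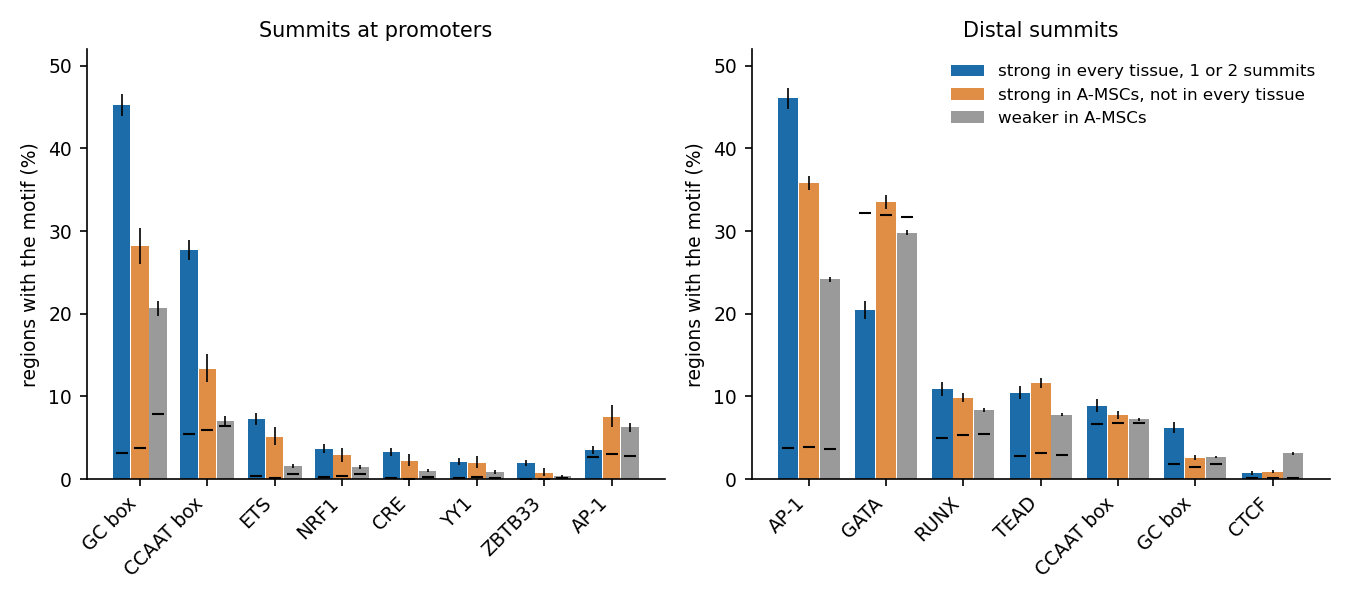
Share of A-MSC regions with each motif within 100 bases of the summit, at promoters (left) and at distal sites (right), for regions strong in every tissue, regions strong in A-MSCs but not in every tissue and weaker regions. Error bars are exact binomial 95% intervals for counting error, and black ticks the share in windows centred 1 kb away. GC and CCAAT boxes at promoters (45.3% and 27.7%) and AP-1 at distal sites (46.1%) are highest, and GATA words at distal sites (20.4%) lowest, in the regions strong in every tissue among the 3 sets drawn, which leave out regions with more than 2 summits.

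The genes at these promoters were next compared by their RNA, which the rule did not use. The 11 RNA libraries held 19569650 to 40517739 expected counts. The cultures expressed the MSC surface genes Itgb1 (466 to 1051 TPM over the libraries) and Cd44 (229 to 720 TPM), and Ptprc of blood cells stayed at 0.35 TPM or below and Pecam1 of endothelium at 3.84 TPM or below. Cd34, a marker of blood progenitors and vessels, reached 79.2 TPM in fBM-MSCs. Summed over the marker lists, 10 macrophage genes ranged from 15.1 to 52.1 TPM per library and 8 endothelial genes from 0.01 to 55.5. The sums were 0.33 to 51.5 for 9 epithelial genes and 1.92 to 227.8 for 10 neuron genes. Erythroid and liver genes stayed at 1.67 TPM or below. Few genes carried the larger sums. Stmn2 of the neuron list reached 221.5 TPM, and every other gene of that list stayed at 7.32 or below. Emcn of the endothelial list reached 49.5 TPM, and the others 3.84 or below. In the epithelial list Krt18 reached 27.05 TPM and Krt8 21.02, and the others 5.4 or below. The part of these marker genes in the results below was not tested. In bulk RNA, fewer cells with a transcript and less of it per cell cannot be told apart. Of 23045 genes with an annotated start on chromosomes 1 to 19, 5758 (24.99%) had at least 1 of the regions within 1 kb of a start. They took up 5036 regions, and 1434 of the genes shared a region with another gene.

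Most of these genes were expressed in every tissue. Their median level was 11.6 TPM, against 0.536 TPM over all 23045 genes, and 4437 of 5758 (77.1%) had at least 1 TPM in each of the 11 libraries. The share was 59.9% of genes whose promoter was strong in A-MSCs but not in every tissue, 35.8% with a weaker region and 2.97% with no listed region. Genes whose region was strong in every tissue but had more than 2 summits were much like those of the set, with 78.4% and a median of 11.97 TPM.

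A strong shared region at the promoter was found at genes with constant and with changing RNA. Of the 5290 genes tested, 3201 (60.5%) differed between the 4 tissues by edgeR's quasi-likelihood F test at an adjusted p under 0.05. Over all 12509 genes tested the share was 60.6%. Without the filter on low counts the shares were 54.1% and 43.0%. At least 3-fold between 2 tissues was reached by 771 genes (14.6%), against 22.5% of all genes tested. The share was 23.8% with a promoter region strong in A-MSCs but not in every tissue, 35.3% with a weaker region and 46.6% with none. It was 11.1% with a region strong in every tissue that had more than 2 summits. Genes with a shared region were also set against all others at each level of expression. When the tested genes were split into 4 groups of equal size by mean log2 CPM, in the lowest group 25.3% of the genes with a shared region and 41.2% of the others passed both limits, and in the highest group 8.32% and 15.5%. The shares called at any size were 30.9% and 44.04% in the lowest group and 74.8% and 77.1% in the highest. The shares are counts over genes in the same 11 libraries and were not tested against each other. With log2(TPM + 1) in limma-trend, 9.30% of these genes and 14.3% of all genes tested passed both limits.

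**Figure D4:**
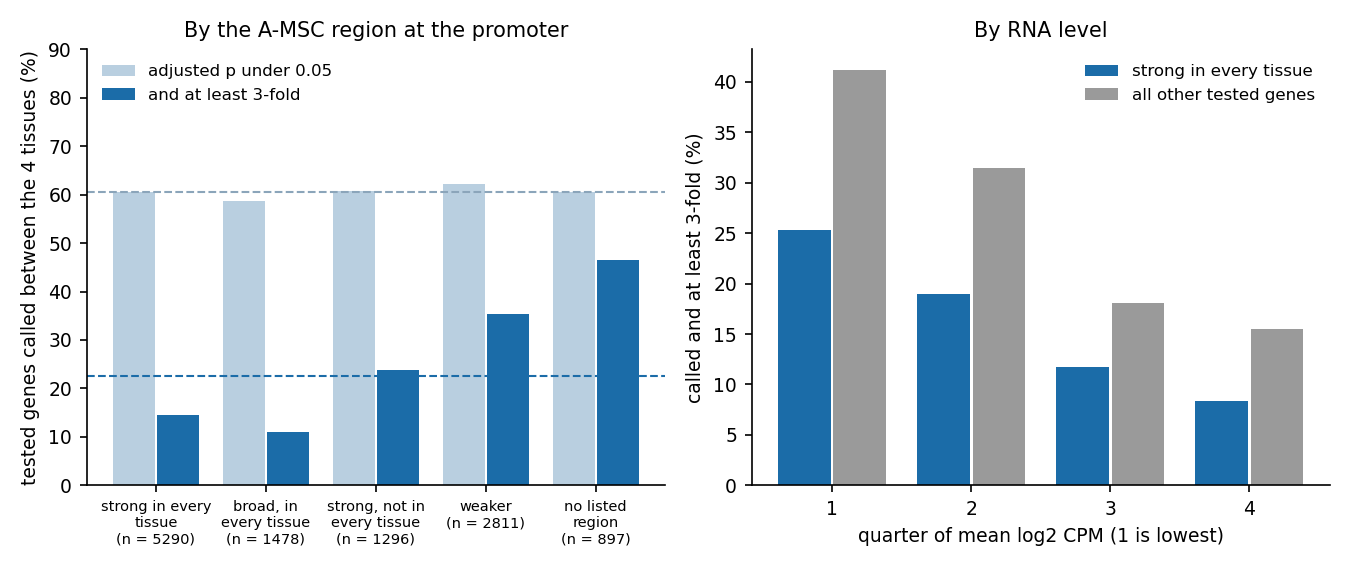
Left, share of tested genes whose RNA differed between the 4 tissues (light, edgeR adjusted p under 0.05) and differed at least 3-fold (dark), by the A-MSC region within 1 kb of a start; dashed lines are the shares over all tested genes, 60.6% and 22.5%. Right, the share at least 3-fold in 4 equal groups of genes by mean log2 CPM; genes with a region strong in every tissue (25.3% to 8.32%) lie below the other tested genes (41.2% to 15.5%) in each group.

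Among the 771 genes, P-MSCs had the most RNA for 305 (39.6%), fBM-MSCs for 234 (30.4%), vBM-MSCs for 135 and A-MSCs for 97. P-MSCs were also the tissue that most often had the least RNA, for 242 (31.4%), followed by fBM-MSCs for 218 (28.3%). Of the genes without a shared region that passed the same limits, 23.8% were highest in P-MSCs. The rule bounded the fold enrichment from below in every tissue and the genes were picked for their RNA change, so that both sizes are set in part by the selection and are a description. The median largest change in RNA was 2.30 on the log2 scale. The fold enrichment in the tissue with most RNA over that in the tissue with least had a median log2 ratio of 0.079, with quartiles of -0.16 and 0.38. It was above 0 for 471 genes (61.1%) and above 1 for 22. Over all the regions, fold enrichment was most often highest in P-MSCs (44.5%) and lowest in fBM-MSCs (45.5%). The part of this in the 61.1% was not tested.

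The 10 genes of largest change among those with at least 5 TPM in every library of a tissue were Smpd3, Pla1a, Egr2, Lmcd1, Angpt4, Gm2694, Wdhd1, F3, Cdc6 and Exo1. In 5 of them, P-MSCs had the least RNA. Pla1a, which encodes a phosphatidylserine phospholipase, had 7.25, 5.85 and 5.31 TPM in fBM-MSCs, 5.80 and 5.06 in vBM-MSCs, 36.3, 31.3 and 42.5 in A-MSCs and 0.28, 0.95 and 0.50 in P-MSCs. All A-MSC libraries lay above and all P-MSC libraries below every other library, a log2 difference of 6.21 (SE 0.37; adjusted p of the edgeR F test 9.87e-07). Its promoter had fold enrichments of 11.4, 10.3, 20.6 and 10.3 in fBM-, vBM-, A- and P-MSCs, so that the region was also the most open in A-MSCs but equal in vBM-MSCs and P-MSCs.

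Smpd3, a neutral sphingomyelinase gene active in bone and cartilage, had 45.2, 37.8 and 1.60 TPM in fBM-MSCs, 14.2 and 18.5 in vBM-MSCs, 2.36, 1.91 and 2.78 in A-MSCs and 0.37, 0.21 and 0.48 in P-MSCs. The third fBM-MSC library stood far below the other two and below all A-MSC libraries. The log2 difference between fBM-MSCs and P-MSCs was 6.43 (SE 0.97; adjusted p of the edgeR F test 0.000561) and was 3.67 on the log2(TPM + 1) scale. The promoter values were in the opposite order, at 29.4, 30.9, 40.1 and 46.0, the highest where RNA was lowest. The medians over all the regions rose in the same order of tissues, from 17.3 in fBM-MSCs to 21.7 in P-MSCs. Such an order is thus not particular to this gene. Smpd3 overlaps 4930506A18Rik, and reads of the 2 genes cannot be told apart by strand.

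Egr2, an immediate early zinc finger factor, had 8.35, 8.12 and 2.08 TPM in fBM-MSCs, 32.6 and 25.03 in vBM-MSCs, 15.4, 12.7 and 21.02 in A-MSCs and 0.31, 0.37 and 0.93 in P-MSCs. The P-MSC libraries lay below all others, and the promoter values were 17.3, 16.6, 17.3 and 12.5. Angpt4, an angiopoietin ligand gene, had 29, 37.1 and 57.4 TPM in fBM-MSCs, 20.7 and 20.1 in vBM-MSCs, 6.29, 4.15 and 7.88 in A-MSCs and 0.44, 0.68 and 2.10 in P-MSCs. No libraries of different tissues overlapped, and the promoter values were in the opposite order, at 12.1, 13.3, 22.1 and 24.7. That order of tissues was also the order of the medians over all the regions. Lmcd1, a LIM domain corepressor gene, was highest in A-MSCs at 18.97, 28.7 and 36.8 TPM and lowest in P-MSCs at 1.26, 0.40 and 0.39, while its promoter values stayed between 23.2 and 28.3. It overlaps 5031434C07Rik, so that its reads may in part be of that gene.

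F3, which encodes tissue factor, the starter of blood clotting, had 37.1, 34.4 and 21.4 TPM in fBM-MSCs and between 434.6 and 1008 TPM in every other library. Both vBM-MSC libraries, at 1008 and 434.6 TPM, differed more from each other than those of any other tissue. The promoter was also the least open in fBM-MSCs, at 11.8, 15.8, 28.3 and 29.4, as were 45.5% of all the regions. Gm2694 was lowest in A-MSCs, at 0.40, 0.58 and 0 TPM, and reached 7.23, 9.21 and 24.4 TPM in fBM-MSCs. Its fitted log2 difference of 5.30 rests on a group with a library at 0 and depends on the prior count; on the log2(TPM + 1) scale it was 3.30.

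The other 3 genes act in DNA replication and repair, and all were highest in P-MSCs. Cdc6, a loader of the replicative helicase, had 8.31, 10.8 and 9.92 TPM in P-MSCs, 2.64, 4.32 and 4.67 in A-MSCs and 0.71 TPM or less in all 5 bone marrow libraries. Exo1, an exonuclease of mismatch repair, had 5.47, 6.13 and 5.93 TPM in P-MSCs, 1.09, 1.96 and 1.33 in A-MSCs and 0.31 TPM or less in the bone marrow libraries. Wdhd1, a replication fork protein gene, had 7.97, 8.31 and 7.49 TPM in P-MSCs, 2.03, 1.78 and 1.96 in A-MSCs and 1.18 TPM or less elsewhere, with a vBM-MSC library at 0. In each gene the P-MSC libraries lay above all others. Their promoters differed: at Exo1 the values were 16.2, 19.5, 18.03 and 19.9 and at Wdhd1 16.6, 14.0, 15.1 and 15.5. At Cdc6 they were 15.1, 11.04, 21.3 and 33.1, with P-MSCs highest, as in 44.5% of all the regions.

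The 10 steadiest genes, by the coefficient of variation of TPM over the 11 libraries among genes with a mean of at least 50 TPM, were Psmb1, Lamtor1, Ndufb9, Aup1, Prkag1, Polr2g, Atp1b3, Psmb3, Ndufs8 and Gdi2. Their coefficients ran from 3.38% to 5.71%. Psmb1, a subunit of the proteasome core, ranged from 530 to 601 TPM over all libraries, with promoter values of 13.6, 16.9, 14.7 and 12.9. Lamtor1, which anchors the Ragulator complex on lysosomes, ranged from 230 to 264 TPM, with promoter values of 21.7, 25.02, 24.3 and 23.2. Lamtor1 overlaps Tomt, Aup1 overlaps Htra2 and Gdi2 overlaps Fam208b. Ndufb9 and Polr2g, of respiratory complex I and of RNA polymerase II, differed between tissues by the edgeR F test (adjusted p = 0.043 and 0.037). The largest log2 differences were only 0.38 and 0.33, and 0.15 and 0.11 on the log2(TPM + 1) scale. Both calls were lost under some of the alternatives.

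**Figure D5:**
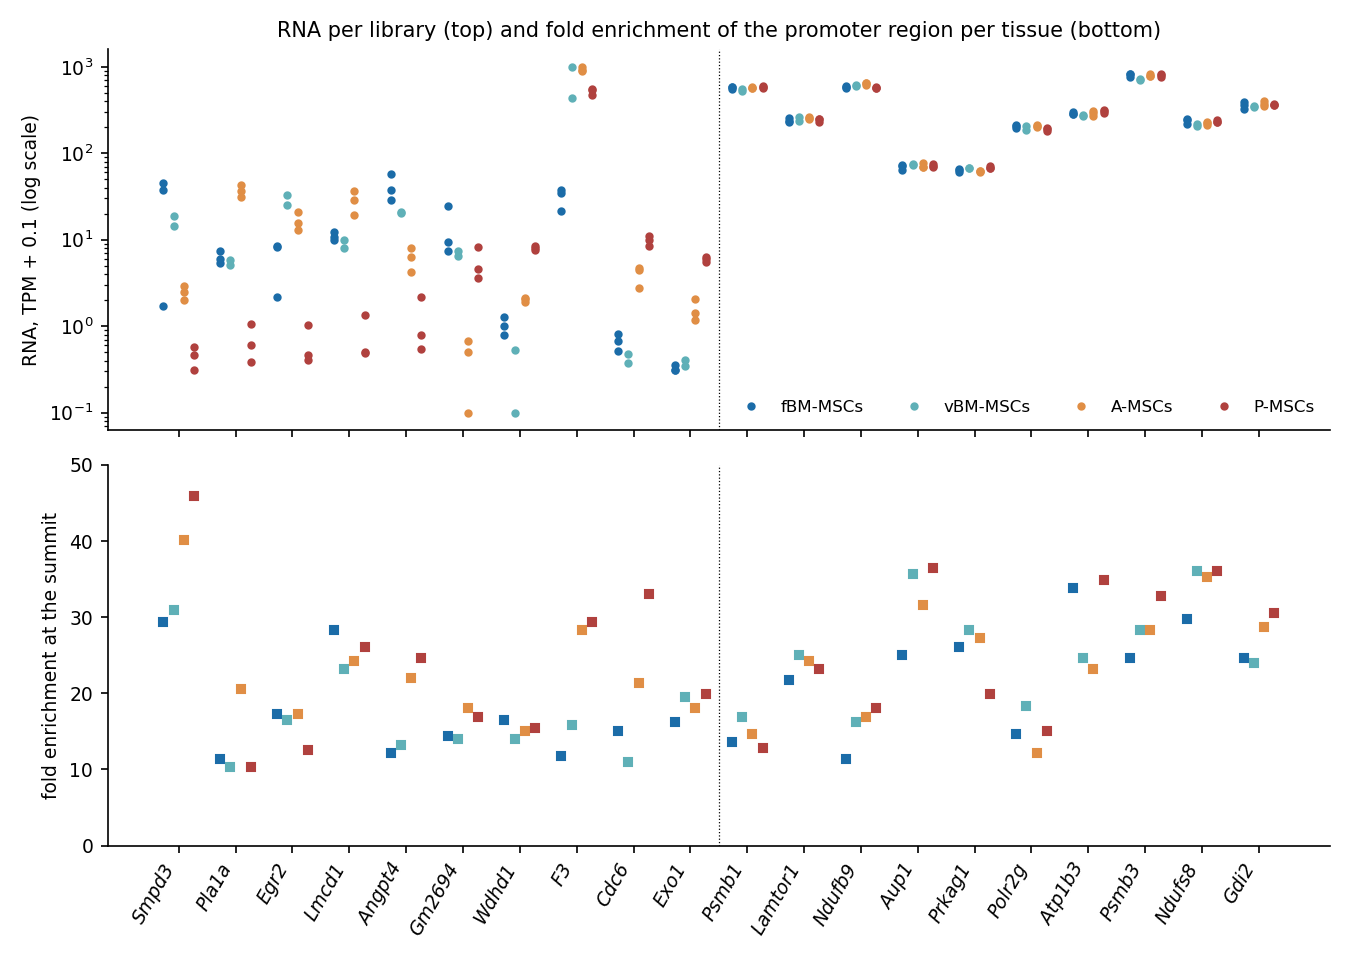
Top, RNA of 20 genes in each of the 11 libraries (TPM + 0.1, log axis); bottom, fold enrichment of the region at their promoter in the pooled list of each tissue (linear axis from 0). The dotted line separates the 10 genes of largest change from the 10 steadiest. RNA of the former spreads widely between tissues, as for Pla1a from 0.28 to 42.5 TPM, whereas all 20 regions lie between 10.3 and 46.0.

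Not every gene at such a promoter was detected. Of the 5758 genes, 481 (8.35%) stayed below 1 TPM in every library, against 47.5% of all 23045 genes. In 173 of them the region was shared with a gene at 1 TPM or more in every library, whereas 1434 of all 5758 shared their region with any gene. Among the 5 with the strongest regions, Gm7008 and Mir1938 shared theirs with Ifrd1 (129 TPM on average), Plag1 with Chchd7 (91.6 TPM) and Atp7b, a copper transporter gene, with Alg11 (17.3 TPM). Mir1938 is a microRNA locus, whose short product is not captured by a method that copies polyadenylated RNA, so that its 0 TPM does not show absence. The exception was the strongest promoter region of the whole set. 4932412D23Rik was listed at 0 TPM in 10 of the 11 libraries and at 0.16 in the other, and no other gene was linked to that region. Each gene was linked to a single region through its listed transcripts, so that another start near the summit is not excluded.

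Gene groups with basic cell functions were counted against a background of 24.99% of all genes, 42.3% of the genes tested and 52.7% of the highest of the 4 expression groups. The regions were found at 22 of 31 proteasome genes (71.0%), 47 of 75 ribosomal protein genes (62.7%), 27 of 51 genes of the respiratory chain (52.9%), 18 of 36 of the general transcription machinery (50%) and 13 of 32 of the spliceosome (40.6%). These counts depend on the limit of 2 summits. A further 3, 7, 5, 3 and 7 genes, in the same order, had a region strong in every tissue with more summits, against 6.84% of all genes. The values at ribosomal protein genes ranged widely: the lowest fold enrichment over the tissues was 10.3 at Rpl5 and Rps15a, 33.5 at Rpl13a and 44.9 at Rps21. Their RNA was compared by the same test. By the edgeR F test, which called 60.6% of all genes tested, 41 of 78 ribosomal protein genes, 22 of 31 proteasome genes, 31 of 53 respiratory chain genes, 18 of 37 genes of the general transcription machinery and 30 of 32 spliceosome genes were called. In none of the 5 groups did a gene reach a called change of 3-fold, against 22.5% of all genes tested. In the highest of the 4 expression groups it was 8.32% of genes with a shared region and 15.5% of the others, with median largest log2 changes of 0.63 and 0.71. The median largest log2 change of the 5 groups was 0.48, 0.41, 0.46, 0.50 and 0.92 in this order, against 0.94 over all genes tested. Ribosomal protein genes have many processed pseudogenes, and the split of reads between these copies makes their counts uncertain.

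Genes of position and lineage were counted against the same 24.99% of all genes. None of 39 Hox genes, which record the position of a tissue along the body axis and limb, held a shared region; 19 had a weaker region and 13 none. Of the 26 Hox genes tested, 22 were called at least 3-fold, against 22.5% of all genes tested. Of 24 bone genes only Msx2 and Sparc held a shared region. Msx2, a homeobox factor of bone and skull, stood at the threshold with 10.3 and Sparc, the matrix protein osteonectin, at 17.3; 17 of the 22 bone genes tested were called at least 3-fold. Of 19 collagen and fibroblast matrix genes, Col5a2, Fn1, Sparc and Thbs2 held one (21.1%), and 3 more had a region strong in every tissue with more than 2 summits. Among the 4 MSC surface genes the regions were found at Itgb1, the integrin chain CD29, and Cd44, the hyaluronan receptor. They were not found at Ly6a, which encodes Sca-1, or Vcam1, which encodes CD106. None of the macrophage, endothelial, epithelial, erythroid, neuron or liver marker genes with an autosomal start held one, nor did Pecam1, Cd34 or Ptprc.

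The genes of the factors that bind the motifs were counted as well. Of the genes for factors of the promoter motifs, 13 of 19 held a shared region at their own promoter, against 24.99% of all genes and 42.3% of those tested, among them Nfyb, Nfyc, Nrf1, Creb1, Yy1, Ets1 and Klf6. Of all 21 genes of the list, 19 of which had a start on chromosomes 1 to 19, 11 were called between tissues and none of them at least 3-fold, against 60.6% and 22.5% of all genes tested. Of 19 genes for factors of the distal motifs, 3 held a shared region (Fosb, Fosl2 and Junb), 18 were called and 10 at least 3-fold. Of the 3, Junb had mean levels of 71.0, 125, 69.0 and 70.1 TPM in fBM-, vBM-, A- and P-MSCs, and Fosl2 stayed between 8.82 and 13.5 TPM over the libraries. Fosb was at 2.13 TPM or below in all 11. The lowest fold enrichment over the tissues was 22.4 at Junb, 27.2 at Fosl2 and 10.7 at Fosb. Another 5 genes of the distal list (Fos, Jun, Runx1, Tead1 and Tead4) and 4 of the promoter list had regions that met the rule except for having more than 2 summits. The difference between the lists was not tested.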

How the data were processed

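ATAC-seq libraries were made by the FAST-ATAC protocol and RNA-seq libraries by Smart-seq2, which keeps no strand. For ATAC-seq, the authors trimmed reads, kept unique Bowtie alignments to mm10, removed duplicates and blacklisted regions, shifted reads for Tn5 and called peaks with MACS2 on pooled samples, with neither a model nor a local background. In the deposited lists the fold enrichment of a summit is a ratio to the background of the whole genome, and the authors' −log10 q gives its significance; the −log10 p was not used. The summit offset, deposited in bases, placed the summits. For RNA-seq, the authors ran RSEM with STAR. The deposited expected counts are not normalized, and the deposited TPM and FPKM are scaled by RSEM for length and library size. The tools are those of the submitters' processing notes and the study's methods (RSEM, Trim Galore, Bowtie, Picard, bedtools, MACS2), and their versions are not given in the sources used here. Replicate 3 of the vBM-MSC RNA was not analysed here.

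Peak lines with the same position were merged into regions. The lists hold chromosomes 1 to 19. A promoter region had its summit within 1 kb of a RefSeq transcription start on GRCm38, which has the chromosome lengths of mm10, and all other regions were distal. Motifs were searched on both strands in the 100 bases on each side of the A-MSC summit and in a window of the same length centred 1 kb away. Shares carry 95% exact binomial intervals, which cover counting error only.

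The expected counts, rounded, were fitted in edgeR 4.0.16 (quasi-likelihood F test over the 4 tissues, TMM, Benjamini-Hochberg adjusted p under 0.05) in R 4.3.3, on the 12509 genes that reached a CPM of 1 in 2 or more of the 11 libraries. The libraries held 19569650 to 40517739 expected counts. The second call also required a 3-fold difference between 2 tissues. The comparison of the 4 tissues was repeated with the likelihood ratio test of DESeq2 1.42.0 and with limma 3.58.1 on log2(TPM + 1). P-values measure the spread between libraries, treated as independent although the tissues came from the same mice. Regions and motifs were handled in Python 3.11.15 with pysam 0.24.0, and the code was tested on simulated data.

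The regions named were the 5 promoter and the 5 distal ones with the highest lowest fold enrichment, with those nearest the threshold, least even or sharing mitochondrial words added after their values were seen. The genes named were the 10 called ones with the largest fold difference and at least 5 TPM in every library of a tissue, and the 10 with the smallest coefficient of variation at a mean of at least 50 TPM. The 5 genes below 1 TPM were chosen after their values were seen. From the lists, the genes with the highest and lowest fold enrichment and those needed to read a count are named. The members, the gene lists, the tests and the alternatives were chosen with earlier results of these data known. The result of a list of reference genes is not reported here.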

Additional observations from a re-analysis of the deposited data

How the results depend on the processing

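With a −log10 q above 10 in place of 20 the rule gave 20878 regions, and with one above 50 it gave 3533. Anchored on the fBM-MSC, vBM-MSC or P-MSC list it gave 11722, 11424 or 11667, and these lists held 95.7%, 94.6% and 95.6% of the 11084 regions. The share at promoters was 45.7% within 500 bp of a start, 50.03% within 2 kb, 64.8% at a −log10 q above 50, 49.1% with the fBM-MSC anchor and 48.98% with the P-MSC anchor. The CTCF consensus was found in 0.292% of distal regions within 50 bases of the summit and in 1.44% within 200 bases. The number of genes with a shared region whose RNA was called stayed between 3071 and 3429 with RLE size factors, without the filter on low counts, with limma-trend or with DESeq2, and between 2735 and 3310 when a library was left out. The number called at least 3-fold was 492 with limma-trend on log2(TPM + 1), where folds of low genes shrink by construction, and 715 to 859 when a library was left out. The median level of these genes was 8.14 as FPKM, on another scale than TPM, and 11.36 to 11.81 TPM when a library was left out. With the replicate block, 3098 of these genes were called, 743 at least 3-fold, and 7332 of all genes. Libraries with the same number correlated between -0.028 and 0.125 in their deviations from the tissue means, and only 1 pair exceeded 0.1. Whether libraries with the same number came from the same mouse is not stated, and these correlations do not settle it. The steady genes Ndufb9 and Polr2g lost their call in 8 and 9 alternatives, the latter also with the replicate block (edgeR adjusted p = 0.0556). Psmb3 gained a call with the replicate block (0.0451) and without vBM-MSC replicate 1 (0.0372). For Wdhd1 the log2 difference was 12.4 without vBM-MSC replicate 2, which left a single vBM-MSC library, at 0 TPM. With 1 pooled list per tissue, differences in fold enrichment have no replicate error.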
